A study of Rattus norvegicus with 24 samples.

Results

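Egr1, Egr2, Egr3 and Arc are immediate-early genes, which cells transcribe within minutes of a stimulus from factors that are already present. They were taken from the deposited table by gene symbol, and each symbol matched a single row, so that 4 of 21067 listed genes are described here. RNA was sequenced from the quadriceps femoris muscle of young Sprague-Dawley rats of both sexes, with 1 library of poly(A) mRNA per rat and 6 rats in each of 4 groups (24 libraries). The control group was fed normally and did no treadmill training. The treadmill group trained for weeks at increasing speed and then ran to exhaustion. Catgut group 1 ran in the same way after an absorbable collagen thread had been embedded at a set of acupoints, by needle under ether anaesthesia. Catgut group 2 had thread at those acupoints plus Fei Shu. All rats had tried the treadmill before they were assigned to groups. In training an electrified bar stood behind the runner, so that running, training and this stimulus all separate the 3 exercised groups (18 libraries) from control and cannot be told apart. By the study's methods, blood was drawn by cardiac puncture immediately after exhaustion. The muscle was taken after the last session, with no interval stated for it. The labels give quadriceps muscle as the tissue, while the text on RNA extraction mentions an adipose type, and fibre markers were high throughout, at a summed 59749 to 82333 FPKM for Acta1, Ckm, Mb and Tnnt3.

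The EGR proteins are transcription factors with C2H2 zinc fingers that bind a GC-rich site. Their genes are induced through MAP kinase signalling and serum response factor (SRF), which binds CArG boxes in their promoters, and the corepressors Nab1 and Nab2 bind EGR proteins and limit their activity. Egr1 responds to contraction, stretch and growth factors in many tissues, Egr2 (Krox20) is best known from myelinating Schwann cells, and Egr3 is required for muscle spindles, the stretch receptors of muscle. Arc encodes a cytoskeleton-associated protein related to retroviral Gag, best known from active neurons, where its RNA moves to synapses. In the annotation that the table carries, Egr2 and Arc share a term for regulation of neuronal synaptic plasticity, held by 18 of the 14772 tested genes, and Egr1 and Egr2 share skeletal muscle cell differentiation, held by 43.

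The promoters of Egr1 and Egr2 are shown because they hold the CArG box. Each line gives the 250 bases before the transcription start from RefSeq, 5′ to 3′ on the gene's own strand, in the rat build GRCr8, with CArG boxes in capitals. The Egr1 window is chr18:26736828-26737077 on the plus strand and the Egr2 window is chr20:21054442-21054691 on the minus strand.
Egr1: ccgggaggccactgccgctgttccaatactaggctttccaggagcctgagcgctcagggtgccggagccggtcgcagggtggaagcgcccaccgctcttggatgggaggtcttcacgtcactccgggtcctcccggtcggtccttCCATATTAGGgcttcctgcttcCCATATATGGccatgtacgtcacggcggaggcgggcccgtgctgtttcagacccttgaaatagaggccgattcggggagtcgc
Egr2: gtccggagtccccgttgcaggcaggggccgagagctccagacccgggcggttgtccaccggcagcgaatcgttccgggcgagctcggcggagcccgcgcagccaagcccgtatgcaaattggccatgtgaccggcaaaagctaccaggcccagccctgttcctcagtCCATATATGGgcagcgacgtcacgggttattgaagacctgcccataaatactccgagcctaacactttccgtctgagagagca

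Egr1 held 2 CArG boxes in this window, CCATATTAGG at 105 to 96 bases before the start and CCATATATGG at 83 to 74. Egr2 held 1, the same CCATATATGG at the same distance of 83 to 74 bases. Of 33469 rat promoter windows of this length, 1.5% held at least 1 CArG box and 0.0209% held 2 or more, counting both strands. Among the other immediate-early genes described below, 19 had a promoter entry, and 2 of these (Zfp36 and Klf6, 10.5%) held the box. The cyclic AMP response element TGACGTCA, found in 1.59% of all windows and in 4 of the 19, and the EGR site GCGNGGGCG, found in 4.29% of all windows and in 6 of the 19, matched neither the Egr1 nor the Egr2 window. A match of letters is a description of the window and says nothing of binding in these muscles. Egr3 and Arc had no entry.

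In the coordinates of the deposited table, whose genome build is not given in the sources used here, Egr1 (ENSRNOG00000019422) lies at chr18:27657628-27661429 on the plus strand. Egr2 (ENSRNOG00000000640) lies at chr20:22454463-22459025 on the minus strand. Egr3 (ENSRNOG00000017828) lies at chr15:51756736-51760722 on the plus strand and Arc (ENSRNOG00000043465) at chr7:115907097-115910541 on the minus strand. 0 other listed genes overlapped any of them. FPKM values, which are fragments scaled to transcript length and to library size and so can be compared between genes, averaged 45.5 for Egr1, 11.5 for Arc, 1.89 for Egr3 and 0.674 for Egr2 over all libraries. Egr1 was therefore above 91.7% of tested genes in mean level, whereas Egr2 was above only 23.2%.

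Total counts were between 45945938 and 78278080 per library, and 4 was the commonest count above 0, so detection here means more than 12 counts, the worth of 3 such steps. This limit covers counting error only. All members passed it in every library except Egr3 in control replicate 6 (11 counts) and Egr2 in catgut 1 replicate 3 (12 counts). The control libraries had the larger totals, with 5 of the 6 above every exercised library. Control replicate 4, the exception, had the lowest median correlation with the other libraries (0.961). Each rat gave 1 library, so p-values measure the spread between rats. A difference was judged by a stricter and a looser rule. The stricter one is an adjusted p under 0.05 from edgeR's quasi-likelihood test over all 14772 tested genes. The looser one follows the criterion for DEGs in the study's methods and asks for mean FPKM values of the groups that differ by a factor over 1.5, with an unadjusted p under 0.05.

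All 4 genes were higher in the exercised groups than in the control group. Egr1 had the highest level and Arc and Egr3 the largest and most separate differences. Egr2 was at a low level throughout. The 3 comparisons with control share the same 6 control libraries, so they are not independent of each other.

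**Figure D1:**
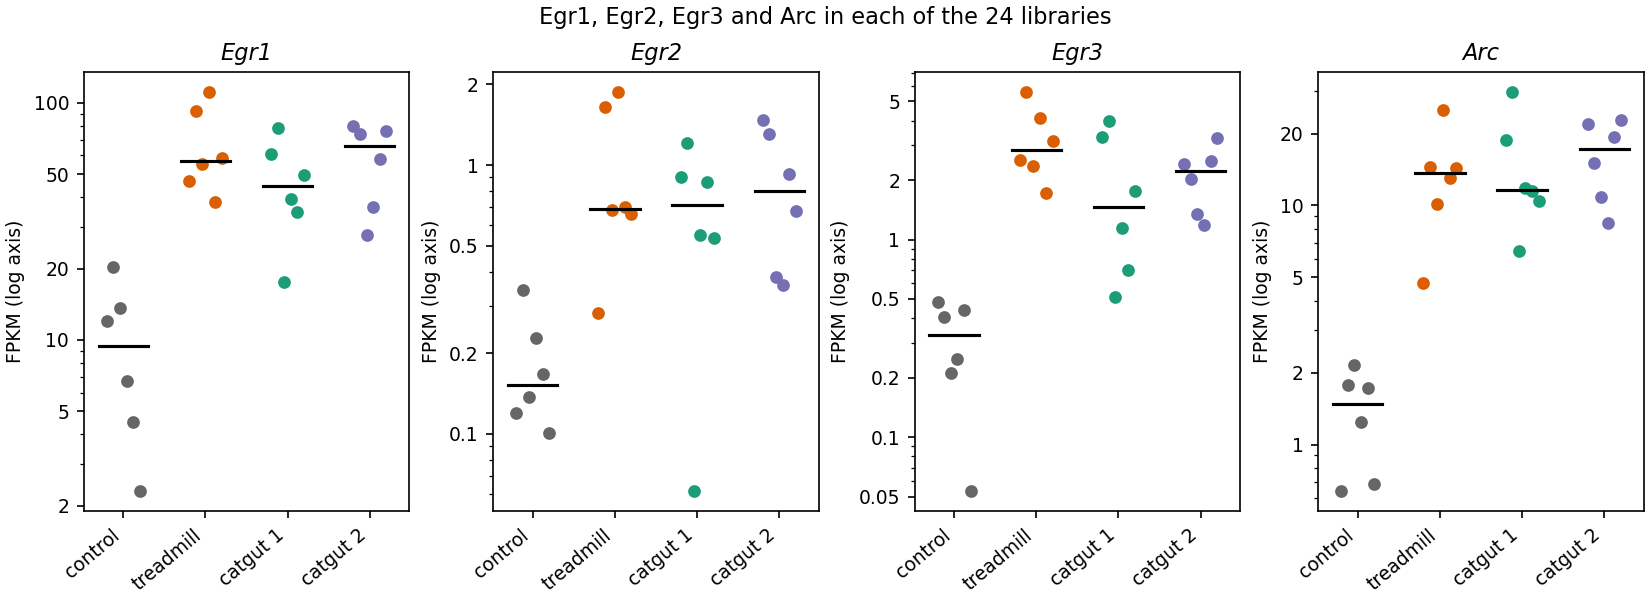
FPKM of Egr1, Egr2, Egr3 and Arc (log axes, 1 panel per gene) in the 24 libraries, with 1 point per rat and a bar at the group median. For Egr3 and Arc every exercised library lies above every control library, whereas for Egr1 catgut 1 replicate 3 (17.5 FPKM) and for Egr2 treadmill replicate 1 (0.283) and catgut 1 replicate 3 (0.0614) reach into or below the control range.

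Egr1 in the control group was between 2.31 and 20.4 FPKM with a median of 9.41. In the treadmill group it was between 38.2 and 111 with a median of 56.8, and in catgut group 1 between 17.5 and 78.3 with a median of 44.5. In catgut group 2 it was between 27.7 and 79.5 with a median of 66.0. Every exercised library stood above every control library except catgut 1 replicate 3, which at 17.5 was below control replicate 2 at 20.4. Mean levels were 9.95 ± 6.72, 66.9 ± 28.3, 46.7 ± 21.2 and 58.5 ± 22.0 FPKM (SD, n = 6 each) in the order control, treadmill, catgut 1 and catgut 2. Against control, the log2 fold change of Egr1 was 2.76 ± 0.481 (SE) in the treadmill group, a 6.78-fold difference with an edgeR adjusted p of 0.112. It was 2.24 ± 0.504 in catgut group 1 (adjusted p = 0.224, edgeR) and 2.57 ± 0.497 in catgut group 2 (adjusted p = 0.0448, edgeR). Egr1 therefore rose by the stricter rule in catgut group 2, and by the looser rule in all 3 groups. The call in catgut group 2 did not hold when any of 10 libraries was left out, which were all of its 12 except control replicate 2 and catgut 2 replicate 4. The study's methods give equal numbers of males and females in each group. By Y-linked transcripts this held in control, treadmill and catgut 1 but not in catgut 2. These transcripts summed to at least 8.45 FPKM in 3 libraries each of control, treadmill and catgut 1 and in 2 of catgut 2. In the others they summed to at most 0.0287 FPKM. In control the 3 libraries without them had 12.1 to 20.4 FPKM of Egr1 and the 3 with them 2.31 to 6.74, while in each exercised group the ranges overlapped. Without control replicate 2, the control rat with the most Egr1, the treadmill value became 3.12 and passed the stricter rule (adjusted p = 0.0312, edgeR).

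Arc in the control group was between 0.639 and 2.14 FPKM, with a median of 1.48. It was between 4.76 and 25.0 in the treadmill group with a median of 13.7, between 6.46 and 29.8 in catgut group 1 with a median of 11.6, and between 8.48 and 22.7 in catgut group 2 with a median of 17.2. The lowest exercised library, treadmill replicate 1, was above the highest control library, so the groups did not overlap. Means were 1.37 ± 0.619, 13.6 ± 6.67, 14.8 ± 8.36 and 16.4 ± 5.92 FPKM (SD, n = 6 each) in the same order. The log2 fold change of Arc was 3.36 ± 0.417 in the treadmill group (adjusted p = 0.0126, edgeR), 3.45 ± 0.42 in catgut group 1 (adjusted p = 0.0128, edgeR) and 3.62 ± 0.383 in catgut group 2 (adjusted p = 0.00296, edgeR). As folds these were 10.3, 10.96 and 12.3. Arc thus rose by both rules in all 3 groups. Leaving out control replicate 4 ended the call in the treadmill group (adjusted p = 0.0583, edgeR) and in catgut group 1, and leaving out control replicate 5 also ended the one in catgut group 1, where the largest adjusted p was 0.0619. In catgut group 2 the call held without any 1 library.

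Egr3 was lower in level than Arc, with control libraries between 0.0533 and 0.483 FPKM and a median of 0.327. The treadmill libraries were between 1.72 and 5.57 with a median of 2.85, the catgut group 1 libraries between 0.514 and 3.97 with a median of 1.46, and the catgut group 2 libraries between 1.18 and 3.26 with a median of 2.22. Again no exercised library fell into the control range, although catgut 1 replicate 3 (0.514) was close to control replicate 1 (0.483). Means were 0.307 ± 0.164, 3.24 ± 1.40, 1.90 ± 1.43 and 2.12 ± 0.775 FPKM (SD, n = 6 each). The log2 fold change of Egr3 was 3.38 ± 0.445 in the treadmill group (10.4-fold, adjusted p = 0.0164, edgeR), 2.63 ± 0.596 in catgut group 1 (adjusted p = 0.224, edgeR) and 2.79 ± 0.458 in catgut group 2 (adjusted p = 0.0246, edgeR). Egr3 rose by the stricter rule in the treadmill group and in catgut group 2, and by the looser rule in all 3. The treadmill call did not hold without control replicate 3 or 4 or treadmill replicate 2 or 4 (largest adjusted p = 0.0757, edgeR). The catgut group 2 call did not hold without control replicate 3 or 5 or catgut 2 replicate 1, 2 or 5 (largest adjusted p = 0.0813, edgeR).

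Egr2 was under 0.5 FPKM in every control library, between 0.101 and 0.343 with a median of 0.152. It was between 0.283 and 1.87 in the treadmill group with a median of 0.689, between 0.0614 and 1.20 in catgut group 1 with a median of 0.709, and between 0.359 and 1.48 in catgut group 2 with a median of 0.8. Treadmill replicate 1 (0.283) was below control replicate 2 (0.343), and catgut 1 replicate 3, at the detection limit, was below every control library, whereas catgut group 2 lay wholly above control. Means were 0.182 ± 0.0903, 0.972 ± 0.631, 0.687 ± 0.395 and 0.854 ± 0.468 FPKM (SD, n = 6 each). The log2 fold change of Egr2 was 2.42 ± 0.452 in the treadmill group (adjusted p = 0.134, edgeR), 1.93 ± 0.533 in catgut group 1 (adjusted p = 0.303, edgeR) and 2.25 ± 0.438 in catgut group 2 (adjusted p = 0.0456, edgeR). By the stricter rule it rose only in the last of these, and by the looser rule in each of the 3. The call in catgut group 2 was lost without any of the same 10 libraries as that of Egr1 (largest adjusted p = 0.117, edgeR). These are whole pieces of muscle, so more RNA per cell and more cells of a type that expresses a gene cannot be told apart for any of the 4.

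**Figure D2:**
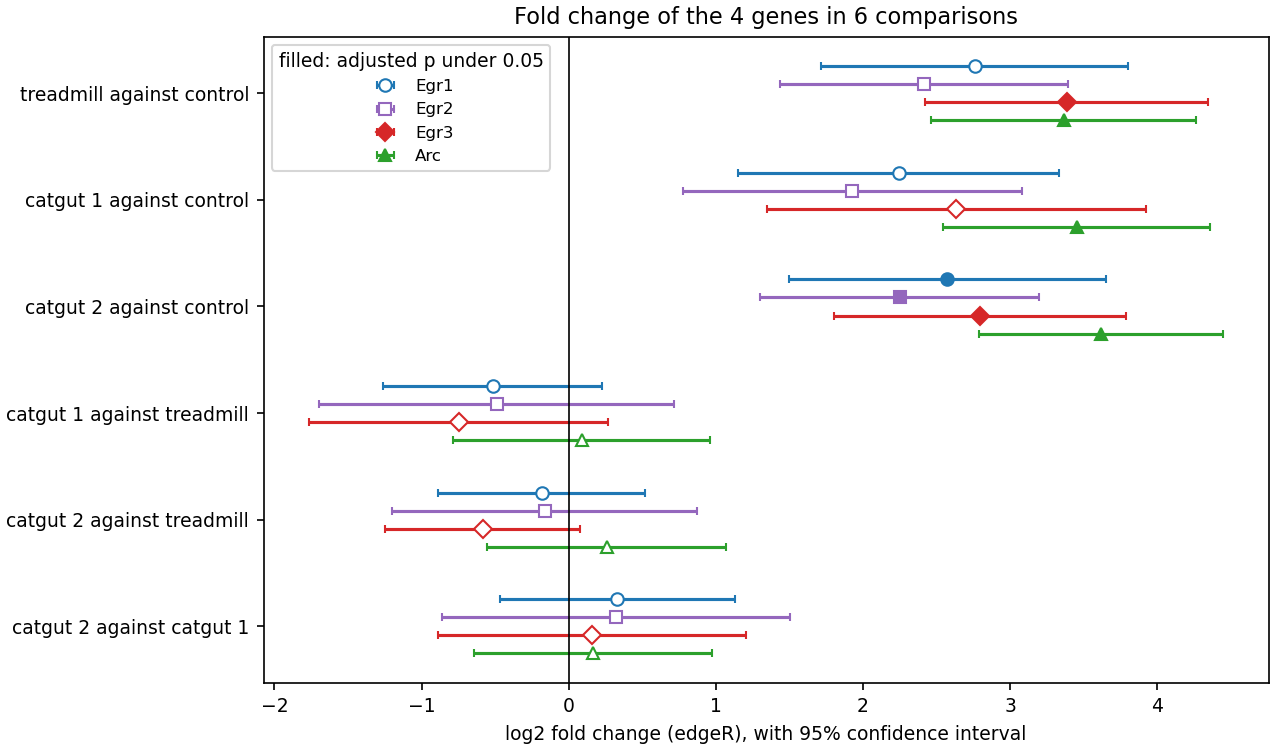
Log2 fold change (edgeR) of Egr1, Egr2, Egr3 and Arc with its 95% confidence interval in the 6 comparisons, filled where the adjusted p is under 0.05. The values against control lie between 1.93 and 3.62, and all 12 intervals between exercised groups include 0.

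Two-sided exact permutation tests of the difference in mean log2(FPKM + 1) gave the smallest p that 6 against 6 libraries allow, 0.00216, for Egr3 and Arc in each comparison with control. The same exact p was reached by Egr1 in the treadmill group and in catgut group 2 and by Egr2 in catgut group 2. The exact permutation p was 0.00433 for Egr1 in catgut group 1 and for Egr2 in the treadmill group, and 0.0195 for Egr2 in catgut group 1. These p-values are not adjusted.

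Counted together, 2 of the 4 genes passed the stricter rule in the treadmill group, 1 in catgut group 1 and 4 in catgut group 2. Among all 14772 tested genes, 0.0542%, 0.0203% and 0.508% did so in these comparisons. By the looser rule all 4 were higher in each of the 3 groups and 0 were lower. The share of all tested genes that were higher by this rule was 1.77% in the treadmill group, 2.32% in catgut group 1 and 3.52% in catgut group 2, and 1.08%, 2.3% and 2.43% were lower. The median log2 fold change of the 4 genes was 3.06, 2.44 and 2.68 in the same order, against -0.00196, -0.0117 and -0.00495 over all tested genes. Every library of the group was above every control library for 3 of the 4 genes in the treadmill group, for 2 in catgut group 1 and for 4 in catgut group 2. That held for 0.325%, 0.318% and 0.724% of all tested genes.

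None of the 4 genes differed by either rule between the exercised groups in edgeR, where 0 had an unadjusted p under 0.05, or by the stricter rule in DESeq2. Against the treadmill group, the thread comes together with ether anaesthesia and needling, and no sham treatment is described. The thread therefore cannot be told apart from these. Catgut 2 against catgut 1 addresses the addition of Fei Shu. The share of tested genes that passed the stricter rule was 0.0474% for catgut 1 against treadmill, 0.237% for catgut 2 against treadmill and 0.00677% for catgut 2 against catgut 1. By the looser rule, 1.13% were higher and 1.99% lower in catgut 1 against treadmill. In catgut 2 against treadmill 1.96% were higher and 1.79% lower, and in catgut 2 against catgut 1 0.9% were higher and 0.345% lower.

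The fitted values of the EGR genes were lower in both catgut groups than in the treadmill group and those of Arc higher, with intervals that include 0 in each case. For Egr1 the log2 fold change was -0.52 in catgut 1 against treadmill (95% interval -1.26 to 0.22) and -0.18 in catgut 2 against treadmill (-0.89 to 0.52). For Egr3 it was -0.75 (-1.76 to 0.27) and -0.58 (-1.25 to 0.08), the widest gaps among the 4. For Egr2 it was -0.49 (-1.69 to 0.72) and -0.16 (-1.20 to 0.87). For Arc it was 0.09 (-0.78 to 0.96) and 0.26 (-0.55 to 1.07). Adjusted p-values (edgeR) were between 0.536 and 0.996. The intervals are wide, so a p over the threshold does not show that the groups were alike. In catgut 2 against catgut 1 the log2 fold changes were 0.33, 0.32, 0.16 and 0.17 for Egr1, Egr2, Egr3 and Arc, all with an adjusted p of 1 (edgeR). Leaving out treadmill replicate 4, the rat highest in Egr1 and Egr2, turned the catgut 2 against treadmill values of Egr1 and Egr2 to 0.05 and 0.18.

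By group median, the order of Egr1 was catgut 2, treadmill, catgut 1 and control. That of Egr2 was catgut 2, catgut 1, treadmill and control, and that of Egr3 treadmill, catgut 2, catgut 1 and control. Arc followed the order catgut 2, treadmill, catgut 1 and control. In each of these orders the exercised neighbours did not differ beyond their spread, and the step down to control was the one that passed a rule.

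Within a group the highest rat differed from the lowest by up to 19.6 times, for Egr2 in catgut group 1, which became 2.26 times without replicate 3 and its 12 counts. The next widest spread, of 9.05 times for Egr3 in control, became 2.29 times without control replicate 6. The coefficient of variation was between 36.1% (Arc in catgut group 2) and 75.1% (Egr3 in catgut group 1). When the 18 exercised libraries were ranked for each gene, treadmill replicate 4 was first for Egr1 and Egr2 and second for Egr3 and Arc. Catgut 1 replicate 3 was last for the 3 EGR genes and 17 of 18 for Arc.

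**Figure D3:**
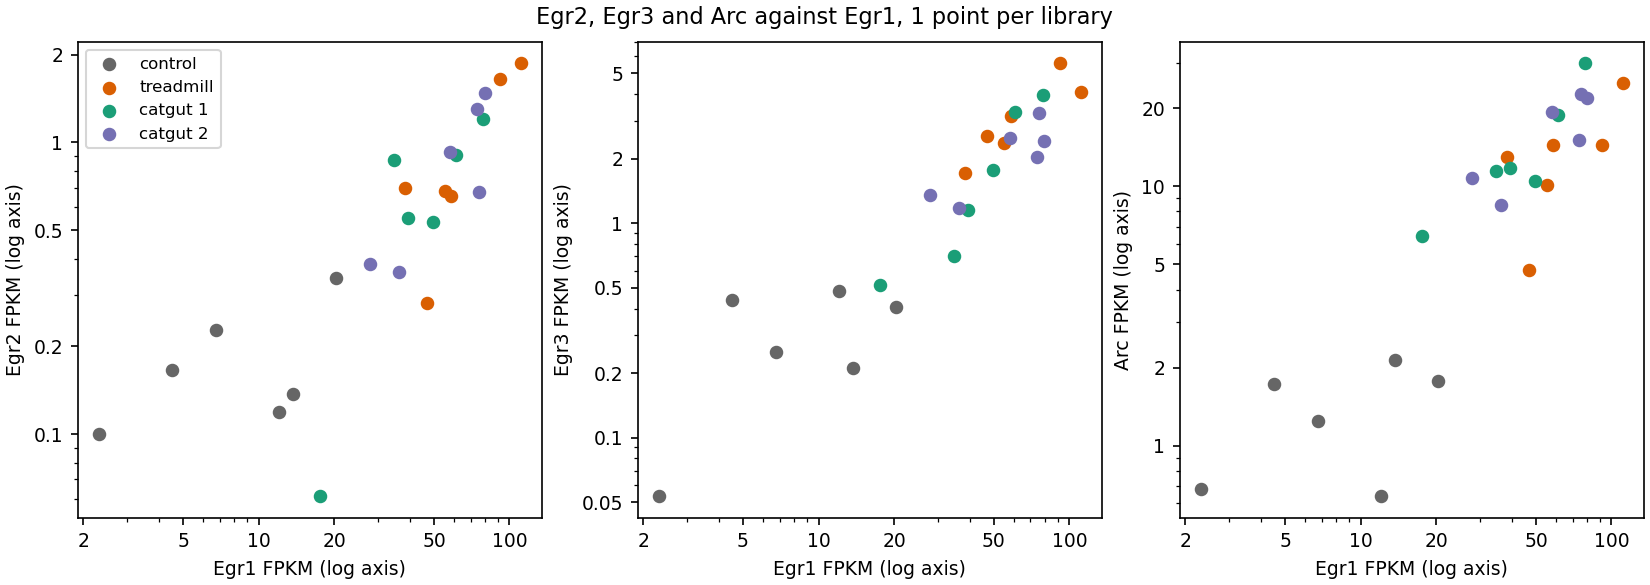
FPKM of Egr2, Egr3 and Arc against Egr1 (log axes), with 1 point per library coloured by group. For Egr2 and Egr3 the exercised points run from catgut 1 replicate 3 at the lower left (Egr1 17.5 FPKM) to treadmill replicates 2 and 4 at the upper right (92.0 and 111). On the Arc axis treadmill replicate 1 is the lowest of them (4.76), catgut 1 replicate 2 the highest (29.8) and treadmill replicate 2 is at 14.4. The control libraries lie below all exercised ones on the Egr3 and Arc axes and reach into their range on those of Egr1 and Egr2.

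Correlations were taken over the 18 exercised libraries on log2(FPKM + 1), with a permutation test of 100000 resamples and adjustment over the 6 pairs of genes. Egr1 and Egr3 had a Pearson r of 0.88 and a Spearman rho of 0.87 (adjusted permutation p = 3e-05 and 6e-05). Egr1 and Egr2 had 0.86 and 0.80 (adjusted permutation p = 3e-05 and 0.000285), and Egr1 and Arc 0.73 and 0.80 (0.00099 and 0.000285). The other pairs were Egr2 and Arc with 0.78 and 0.80 (adjusted permutation p = 0.00038 and 0.000285), Egr2 and Egr3 with 0.68 and 0.60 (0.00266 and 0.00993), and Egr3 and Arc with 0.60 and 0.66 (0.00846 and 0.00475). The smallest unadjusted p that these resamples can give is 1e-05. Without the 2 libraries farthest from the median of the first gene, the Pearson r was 0.85, 0.80, 0.68, 0.69, 0.51 and 0.53 in the order given, each with an adjusted permutation p under 0.05, and only the rho of Egr2 and Egr3 (0.43, adjusted permutation p = 0.0961) passed that mark. With the group means removed, r was 0.88, 0.86, 0.81, 0.82, 0.67 and 0.76, close to or above the pooled values. Within a single group of 6 it was between 0.46 (Egr3 and Arc, treadmill) and 0.97 (Egr3 and Arc, catgut 2), and within control between 0.18 (Egr3 and Arc) and 0.56 (Egr1 and Egr2). Library size and any sharing of tissue composition are common to the genes of a library and were not separated here.

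The balance between the genes within a library was examined after their levels had been seen and is given as a description with no test. Egr3 as a share of Egr1 FPKM had a median of 3.01% in control, 4.96% in the treadmill group, 3.24% in catgut group 1 and 3.78% in catgut group 2. Arc as a share of Egr1 had medians of 17.0%, 20.5%, 32.0% and 28.8% in the same order, and it stayed under 39.0%, so that Egr1 was the more abundant of the pair in every library. Arc as a share of Egr3 ranged over 187% to 753% in treadmill rats, 570% to 1628% in catgut 1 rats and 699% to 905% in catgut 2 rats. These ranges overlap, and the control group was spread over 132% to 1281%, with as few as 11 counts of Egr3 behind a value.

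**Figure D4:**
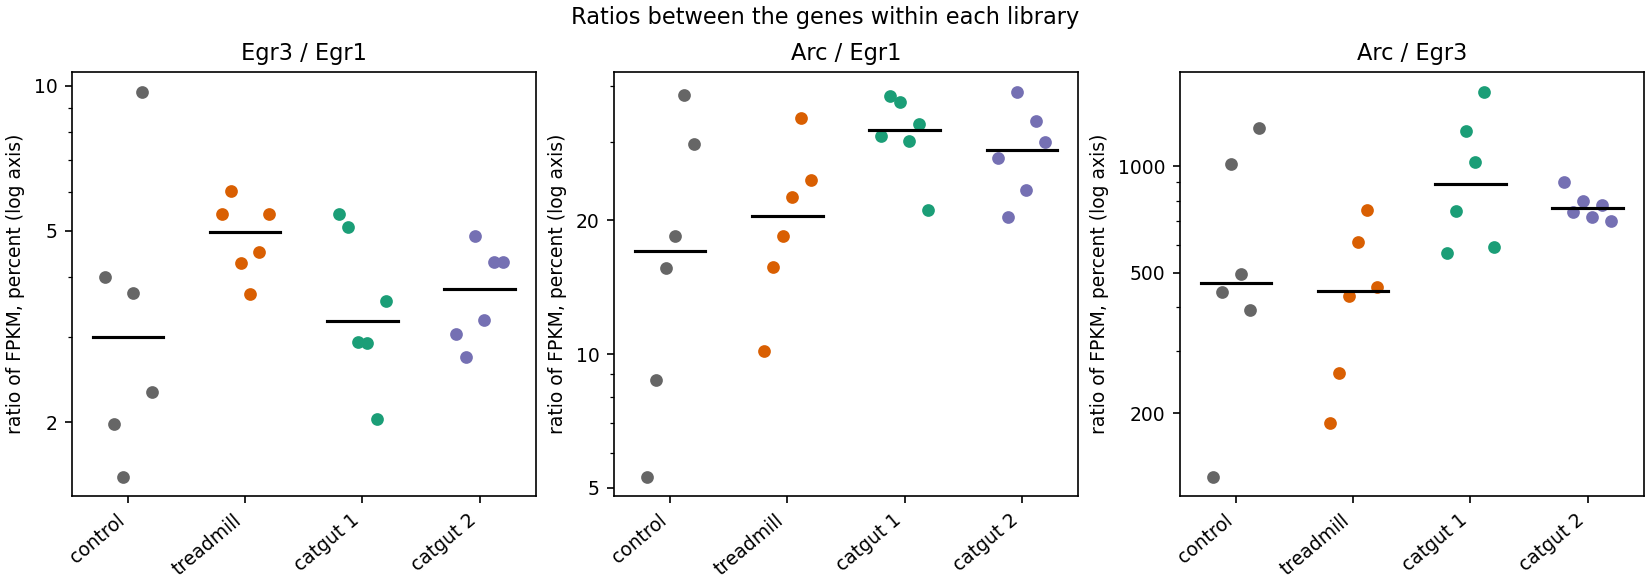
Ratio of FPKM within each library, in percent on log axes, for Egr3 to Egr1, Arc to Egr1 and Arc to Egr3, with 1 point per rat and a bar at the group median. The catgut group 2 points for Arc to Egr3 lie close together (699% to 905%), whereas the control points spread from 132% to 1281%.

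The genes whose levels followed each of the 4 most closely over the exercised libraries were taken from 9413 or 9414 named genes with a mean of at least 1 FPKM, by Pearson r and with no test. For Egr1 these were Egr3 (0.88), Ier2 (0.85), Btg2 (0.82), Ccn1 (0.77) and Gstp1 (0.77). For Egr2 they were Egr1 (0.86), Btg2 (0.84), Ccn1 (0.81), the polo-like kinase gene Plk3 (0.79) and the Notch-responsive repressor gene Hes1 (0.79). Ier2, Btg2 and Ccn1 are themselves immediate-early genes, and Btg2, an antiproliferative factor, was among the 5 closest to all 4 genes. For Egr3 they were Egr1 (0.88), the interferon-induced gene Ifit2 (0.80), Ier2 (0.78), Btg2 (0.76) and Rpl22 (0.75). For Arc they were Ttc39c (0.85), Gstp1 (0.80), Litaf (0.78), the flow-responsive factor Klf2 (0.77) and Btg2 (0.77). Neither Egr1 nor Egr3 was among the 5 closest to Arc. Egr2 is under 1 FPKM on average and could not enter these lists. Its r with Arc (0.777) was above those of Klf2 (0.774) and Btg2 (0.773).

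Regulators upstream of the EGR genes gave no call. Of 17 tested, which comprise SRF and its cofactors, CREB and MEF2 factors and MAP kinase pathway kinases, 0 were higher or lower by either rule in any exercised group against control, with median log2 fold changes of 0.06, 0.04 and -0.02 for treadmill, catgut 1 and catgut 2. At an unadjusted edgeR p under 0.05 alone there were 1, 4 and 3, all with ratios under the looser rule's factor of 1.5. Srf itself was at 15.7 ± 0.795 FPKM in control and 19.6 ± 2.06 in the treadmill group (SD, n = 6 each), a log2 difference of 0.35 ± 0.0727 with an adjusted p of 0.197 (edgeR). In catgut group 1 every library (17.8 to 20.6 FPKM of Srf) lay above every control library (14.7 to 17.0), at 0.27 ± 0.0731 (adjusted p = 0.303, edgeR). In catgut group 2 Srf was at 15.6 to 19.8 FPKM. Of the 17 regulators 1, 1 and 0 lay wholly above control, against 0.325%, 0.318% and 0.724% of all tested genes. Mrtfa, a partner of Srf, differed by 0.38, 0.29 and 0.43. These RNA levels carry no information on the phosphorylation through which the pathway acts. In catgut 1 against treadmill, Creb1 was the 1 regulator higher by the looser rule (0.64, adjusted p = 0.669, edgeR), and leaving out treadmill replicate 3, 5 or 6 or catgut 1 replicate 1, 2, 4, 5 or 6 brought that count to 0.

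Of the family and its corepressors, Egr4 and Wt1, whose product has EGR-like zinc fingers, were below the filter on low values. Egr4 was listed at 0 counts in all 6 control libraries and exceeded the 12-count limit only in treadmill replicates 2 and 4, with 15 and 19 counts, which are the same 2 rats that led the treadmill group in Egr1 and Egr2. Nab1 and Nab2 passed neither rule. Nab2, a target and corepressor of EGR proteins, had log2 fold changes of 0.56, 0.54 and 0.51 against control (adjusted p = 0.553, 0.447 and 0.256, edgeR).

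Among 13 tested genes known as EGR targets, 3 were higher by the looser rule in each exercised group, 0 were lower and 0 passed the stricter rule, with medians of 0.41, 0.34 and 0.35 on the log2 scale. The treadmill count was 1 without treadmill replicate 2 or 4 and 5 without treadmill replicate 6. F3, which encodes tissue factor, was higher in all 3 groups (0.90, 0.70 and 0.84). In the treadmill group its value rested on replicate 2 (20.1 FPKM, against a group median of 3.50 and a control median of 2.97) and was 0.23 without it, and leaving out any of 5 control libraries also ended that call. The calls of F3 in the catgut groups were lost without catgut 1 replicate 3 and without catgut 2 replicate 2, where the value was 0.54. Sphk1, a sphingosine kinase gene at a mean of only 0.0627 FPKM in control, was likewise higher in all 3 groups (1.70, 2.22 and 2.34), and in the treadmill group not without replicate 4 (1.27). Pdgfb was the other target higher in the treadmill group (0.71, a call lost without treadmill replicate 2 or 4), Hpse in catgut group 1 (1.14) and Vegfa in catgut group 2 (0.60, lost without control replicate 1 or catgut 2 replicate 1 or 3). Pdgfa, Tgfb1, Ngfr, Icam1, Vldlr and Cdkn1a passed neither rule in any of the 3 comparisons. Of 7 tested genes for partners of the Arc protein, 0 passed either rule, and 0, 0 and 2 had an unadjusted edgeR p under 0.05. Camk2b, whose product binds Arc, differed by 0.01, -0.27 and -0.30, and Dnm2, of the endocytic machinery that Arc joins, by 0.10, 0.08 and 0.07.

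**Figure D5:**
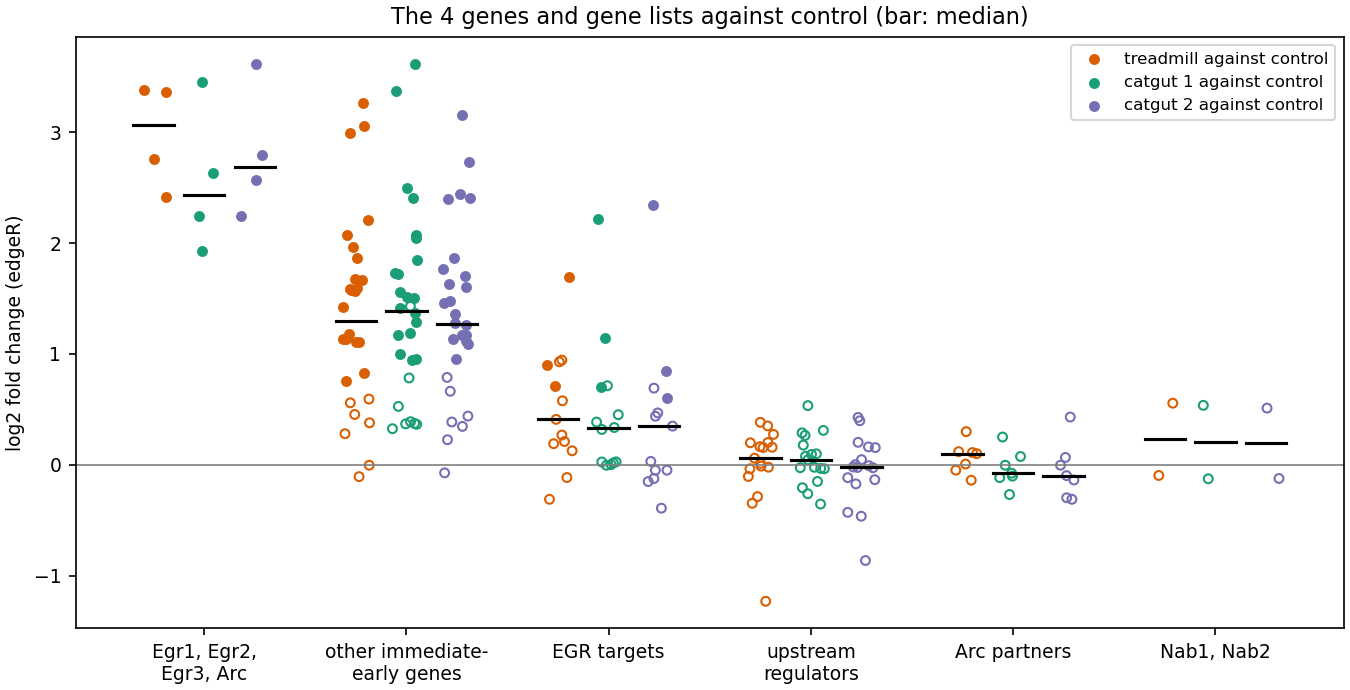
Log2 fold change (edgeR) of each tested gene against control, by list, for the treadmill group and both catgut groups, filled where the gene passed the looser rule and with a bar at the median. Egr1, Egr2, Egr3 and Arc have medians of 3.06, 2.44 and 2.68 and the 28 other immediate-early genes 1.3, 1.39 and 1.27, while the upstream regulators centre near 0.

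Most of the other immediate-early genes were higher by the looser rule as well. Of 28 tested, 21, 20 and 21 were higher by the looser rule in treadmill, catgut 1 and catgut 2, and 0 were lower. The call of Fos was lost without any of 10 libraries in treadmill and any of 7 in catgut 2. Fos passed neither rule in catgut 1. The treadmill calls were lost for Jun without treadmill replicate 4 and for Nr4a3 without treadmill replicate 2. The other looser calls of this list held without any 1 library. By the stricter rule, Ier2 and Ccn1 rose in the treadmill group, 0 genes in catgut group 1, and 6 in catgut group 2 (Nr4a1, Nr4a2, Zfp36, Sik1, Csrnp1 and Ccn1). Their median log2 fold changes were 1.3, 1.39 and 1.27, which are below the values of each of the 4 genes described here. Some were as high, such as the nuclear receptor gene Nr4a2 (3.26, 3.37 and 3.15) and Fosb (3.05, 2.08 and 2.41), while Klf10 (-0.00, 0.36 and -0.07), Myc (0.28, 0.37 and 0.23) and Gadd45g (-0.11, 0.39 and 0.35) passed neither rule. Ier2 was the 1 immediate-early gene that differed between exercised groups by the looser rule, lower in catgut 1 than in the treadmill group (-0.62, adjusted p = 0.392, edgeR), and that count was 0 without treadmill replicate 2, 4 or 6 or catgut 1 replicate 3 or 4 and 2 without treadmill replicate 3 or 5 or catgut 1 replicate 1 or 2.

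Markers of the cell types in which these genes are best known were examined beside them. The 5 neuronal markers Snap25, Rbfox3, Nefl, Syt1 and Stmn2 summed to 0.451 to 7.09 FPKM in any library, and 4 of the 5 were below the filter. Arc was between 0.639 and 2.14 FPKM in control and between 4.76 and 29.8 in the exercised groups. The part of neurons in these levels was not tested. Of 8 tested Schwann cell markers, 0, 0 and 3 were higher by the looser rule in treadmill, catgut 1 and catgut 2, the 3 being Mbp, Pmp22 and Prx. All 3 calls were lost without catgut 2 replicate 2, and leaving out any of 7 libraries ended that of Mbp. S100b of the same list had lower means in catgut 1 (2.16 FPKM) and catgut 2 (3.09) than in control (4.87) and passed neither rule. The sum of the list was 8.83 to 41.3 FPKM in control, and 14.7 to 82.2, 10.0 to 62.6 and 26.1 to 121 in the treadmill, catgut 1 and catgut 2 rats. Of 6 muscle spindle markers, 1, 1 and 2 were higher (Ntf3 in each, with Myh7b in catgut 2), and their sum was 1.75 to 21.5, 2.42 to 28.4, 3.71 to 34.5 and 9.15 to 42.2 FPKM in the 4 groups. The Ntf3 call in treadmill was lost without control replicate 2 or 3 or treadmill replicate 2 or 4. In catgut 1 it was lost without catgut 1 replicate 5, and in catgut 2 it held without any 1 library. The Myh7b call was lost without catgut 2 replicate 1. The rats with the most and the least Egr3 also had the highest and the lowest spindle sum in catgut group 1 (replicates 2 and 3, at 34.5 and 3.71) and in catgut group 2 (replicates 6 and 4, at 42.2 and 9.15). The same rats were also highest and lowest in Arc in each of these groups, and in Egr1 and Egr2 in catgut group 1. Myh6 alone reached 25.6 FPKM in catgut group 1 and 34.1 in catgut group 2, so the sum leaned on this gene. In the treadmill group the rat with the most Egr3, replicate 2, had a spindle sum of 4.64, and the highest sum (28.4) was in replicate 3. For Egr2 and the Schwann cell sum, treadmill replicate 1 was lowest in both (14.7 FPKM for the sum), replicate 4 was highest in Egr2 and second in the sum (44.3), and replicate 3 had the highest sum. In catgut group 1 replicate 6, with the highest Schwann cell sum, had less Egr2 (0.533) than any other rat of the group except replicate 3, and in catgut group 2 replicate 2, with the highest sum, was second in Egr2 (1.3 FPKM).

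Some markers of other cells rose beside the 4 genes by the looser rule and some fell, and 0 passed the stricter one. Of 4 smooth muscle markers 3, 2 and 2 were higher in treadmill, catgut 1 and catgut 2, with a sum of 38.6 to 91.8 FPKM in control and of 59.9 to 156, 74.8 to 250 and 62.3 to 147 in these groups. Of 3 satellite cell markers 2, 1 and 1 were higher, with sums of 4.17 to 7.61 in control, 9.01 to 10.2 in the treadmill group, which lay wholly above control, and 4.41 to 9.92 and 5.12 to 9.37 in the catgut groups. Of 2 erythroid markers 2, 1 and 1 were higher, with sums of 81.4 to 144 in control and 104 to 455, 96.0 to 461 and 86.6 to 498. Without catgut 1 replicate 5 its smooth muscle calls were lost, and without treadmill replicate 4 its erythroid calls. The treadmill call of Pax7 was lost without any of 7 libraries. Adipocyte markers had median log2 fold changes of -1.11, -1.73 and -1.23, and Lep in treadmill and Adipoq in catgut 1 were lower by the looser rule. So were 4 of 5 liver markers in each catgut group (Alb, Ttr, Fabp1 and Apoc3). Leaving out control replicate 2 ended these liver calls, except that of Ttr in catgut group 1. The calls of Lep and Adipoq were each lost without any of 8 libraries. Macrophage markers were highest in treadmill replicate 2 (22.4 FPKM, against 2.80 to 9.42 in control), and liver transcripts summed to 203 FPKM in control replicate 2, to 315, 22.0, 5.75 and 3.89 in treadmill replicates 3, 2, 6 and 5, and to less than 1 FPKM in every other library. The part of these cells in the levels of the 4 genes was not tested.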

How the data were processed

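The authors deposited 1 table of 21067 genes with FPKM and whole-number counts for each of the 24 libraries, made from paired-end poly(A) sequencing. The submitters' processing notes name HISAT2 2.0 and StringTie 1.3.0. The deposited counts are used as listed, and their commonest values, 4 and 8, are multiples of 4, so counts divided by 4 were tried as an alternative. Columns of 0 other samples were present. Groups come from the treatment labels.

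The members were found by gene symbol. The members, gene lists and rules were chosen with earlier results of these data known. The 14772 genes that averaged 0.1 FPKM or more were tested, each pair of groups alone, with edgeR 4.0.16 in R 4.3.3 (TMM, quasi-likelihood, two-sided) and Benjamini-Hochberg adjustment over all tested genes. Standard errors come from the fold change and its F statistic. Exact permutation tests and correlations used log2(FPKM + 1). Named genes are the members, genes of the lists, and the 5 genes closest to each member by correlation. The alternatives were no filter or a mean FPKM of at least 1, median-ratio scaling, DESeq2 1.42.0, counts divided by 4, 1 fit over the 4 groups, the replicate number as a block, Y-linked level as a covariate, limma 3.58.1 with a pseudocount of 1 or 0.1, and each library left out. The steps were tested on simulated data. Values of some single genes of the lists are not reported here.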

Additional observations from a re-analysis of the deposited data

How the results depend on the processing

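Every fold change against control stayed above 0 under every alternative run. Members passing the stricter rule against control numbered 2, 1 and 4 in treadmill, catgut 1 and catgut 2, and 4 in each of the first 2 with DESeq2, which called 113, 167, 712, 140, 306 and 8 of all tested genes in the 6 comparisons against 8, 3, 75, 7, 35 and 1 with edgeR. A joint fit over the 4 groups gave 3 in catgut 1, and no filter gave 2 in catgut 2. Leaving out 1 library gave 0 to 3, 0 to 1 and 1 to 4.

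Newly past the threshold were, in the treadmill group, Egr1 (2.77 with DESeq2, 2.76 with 1 fit over the 4 groups, 2.80 with limma and a pseudocount of 1) and Egr2 (2.43, DESeq2), and in catgut 1 Egr1 (2.25 and 2.25), Egr2 (1.94, DESeq2) and Egr3 (2.64 and 2.64), with DESeq2 and the joint fit. No longer past it in catgut 2 were Egr1 (2.56, no filter) and Egr2 (2.24 with no filter, 2.25 in the joint fit, 0.61 and 1.65 with limma and a pseudocount of 1 and 0.1). Leaving out 1 library gave 2.53 to 3.12 for Egr1, 3.17 to 3.58 for Egr3 and 3.08 to 3.55 for Arc in the treadmill group, 3.16 to 3.63 for Arc in catgut 1, and 2.37 to 2.93, 1.95 to 2.55 and 2.58 to 2.99 for Egr1, Egr2 and Egr3 in catgut 2. The cause was not tested.

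Deviations of same-numbered rats correlated at -0.226 to 0.232 over all tested genes. At most 1 of 6 pairs in a comparison was over 0.1, and at most 2 of 6 correlated best with their own number. These correlations show no pairing by number. The numbers did follow the Y-linked transcripts in part. These were in replicates 4 to 6 of control, treadmill and catgut 1, and in replicates 1 and 5 of catgut 2. With the replicate number as a block, 1, 0 and 0 members were called. Values with the block were 3.51 for Egr3 (treadmill), 3.42 for Arc (catgut 1), and 2.76, 2.13, 2.84 and 3.60 for Egr1, Egr2, Egr3 and Arc (catgut 2).

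Between exercised groups no member was called under any alternative. Leaving out 1 library turned signs for Arc in catgut 1 against treadmill (-0.21 to 0.37, below 0 without treadmill replicate 1, at -0.09, or catgut 1 replicate 1, at -0.02, or 2). In catgut 2 against treadmill it did so for Egr1 (-0.34 to 0.051) and Egr2 (-0.46 to 0.18), each above 0 without treadmill replicate 4. In catgut 2 against catgut 1 it did so for Egr3 (-0.044 to 0.48, below 0 without catgut 1 replicate 3 or 5 or catgut 2 replicate 6) and for Arc (-0.0004 to 0.46, below 0 without catgut 1 replicate 3). A mean FPKM of at least 1 removed Egr2 and so gave it no value. The Y-linked covariate, counts divided by 4 and median-ratio scaling left every member on its side of the threshold. The Pearson correlations kept their sign and call under each alternative. The depth limits Egr2 and Egr3 in control, where as few as 25 and 11 counts were listed.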
